A study of Mus musculus with 12 samples.

Results

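The 10 receptors described here are 7 Frizzled genes (Fzd1, Fzd2, Fzd4, Fzd5, Fzd6, Fzd7 and Fzd8), the co-receptor genes Lrp5 and Lrp6, and Ryk. They were found on the array as every probe set annotated to one of these symbols, or to its alias, and to no other gene, which gave 23 probe sets for 10 genes. The array held 45037 non-control probe sets and 18193 genes in all. Of the 10 receptors 9 were bright enough to be tested, and Lrp5 was not.

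Tumours had been grown in the cecum of C57BL/6 mice from MC38, a mouse colon carcinoma line, and 3 tumours per group were profiled on 12 Affymetrix arrays. The groups were APC-KO with Dox, APC-KO without Dox, APC-WT with Dox and APC-WT without Dox, where Dox is doxycycline given in drinking water. Cells of all groups carried ishTDO2, a doxycycline-inducible hairpin against Tdo2, the gene of the tryptophan-degrading enzyme TDO2, so that tumours with Dox but no hairpin were not analysed here. Whether the APC-KO line was 1 clone, whether each tumour came from a mouse of its own, and the age of the mice are not stated in the labels. P-values thus cover the spread seen among these tumours, which may be technical.

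Frizzled proteins are seven-pass membrane receptors that bind Wnt ligands through a cysteine-rich domain outside the cell. LRP5 and LRP6 are single-pass co-receptors, and a Frizzled and an LRP brought together by a Wnt recruit Dishevelled and Axin, which stops the degradation of beta-catenin. APC is a scaffold of the complex that degrades beta-catenin and acts below the receptors, and its loss is a common event in colorectal cancer. RYK is a Wnt-binding receptor with an inactive kinase domain, and several Frizzleds also signal without beta-catenin, in planar cell polarity or calcium pathways.

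The values are the deposited log2 levels, in which a difference of 1 is a 2-fold change. Each gene was read by its brightest probe set, and was tested where the mean over the 12 arrays reached a log2 floor of 5.55, the median of all probe sets, which is a filter and not a measured background. In all 11070 genes were tested. Differences carry the standard error of a limma fit to all 12 arrays, and adjusted p-values are limma's after Benjamini-Hochberg adjustment over the tested genes, two-sided, with a threshold of 0.05. The smallest p of an exact permutation test of 3 tumours against 3 is 0.1, and no such test was run on single genes. Levels of different probe sets are not set against each other, since probe sets differ in brightness for reasons other than the amount of RNA.

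Array medians lay between 5.53 and 5.58, and arrays of 1 group correlated at 0.995 to 0.998. The targeted gene Tdo2 had 3 probe sets, all under the floor, with means of 2.59, 3.12 and 3.85, so its knockdown could not be read. An Apc probe set was lower in APC-KO tumours by 0.84 ± 0.09 without Dox (adjusted p = 1.02e-05) and by 0.94 ± 0.09 with Dox (adjusted p = 3.08e-06), and a second by 0.41 ± 0.11 (adjusted p = 0.0187) and 0.49 ± 0.11 (adjusted p = 0.00647). The brightest Apc probe set differed by -0.10 ± 0.07 without Dox (adjusted p = 0.416) and passed with Dox at -0.24 ± 0.07 (adjusted p = 0.0443), a further one was under the floor, and the labels do not state the deleted stretch of Apc. The label of a colon carcinoma line was set against 8 epithelial markers: Krt8, Epcam and Cdh1 were at or above the floor, with mean log2 levels of 9.54, 7.25 and 5.62, and Krt18, Krt19, Krt20, Vil1 and Cdx2 were under it.

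The first sequences shown are the proximal promoters of Fzd5 and Fzd4, which were higher in APC-KO tumours, and of Fzd1, which was not. Promoter windows were found for 5 receptors, Fzd1, Fzd4, Fzd5, Fzd7 and Ryk, and for neither Fzd8 nor Fzd6. Of these 5, Fzd1 alone had a window with TCAAAG or its reverse CTTTGA. These letters are 1 form of the core of the TCF/LEF motif, the site through which beta-catenin acts. Other forms, such as ACAAAG, were not searched. Each runs 5′ to 3′ on the gene's own strand over 300 bases around the gene's start, most of them upstream, as given by RefSeq for build GRCm38.p6. Capitals mark TCAAAG or its reverse CTTTGA, and the GC box GGGCGG or its reverse CCGCCC. They were searched on both strands, with overlapping matches joined in 1 run. Fzd5 lies at chr1:64737701-64738000 on the minus strand, Fzd4 at chr7:89404116-89404415 on the plus strand and Fzd1 at chr5:4758167-4758466 on the minus strand.
Fzd5: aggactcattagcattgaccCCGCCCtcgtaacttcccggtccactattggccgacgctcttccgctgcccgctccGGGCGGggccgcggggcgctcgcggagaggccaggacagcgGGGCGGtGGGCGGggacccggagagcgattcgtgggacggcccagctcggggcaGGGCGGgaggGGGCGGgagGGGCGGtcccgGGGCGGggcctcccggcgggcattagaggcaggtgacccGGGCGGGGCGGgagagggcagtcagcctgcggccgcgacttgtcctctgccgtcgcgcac
Fzd4: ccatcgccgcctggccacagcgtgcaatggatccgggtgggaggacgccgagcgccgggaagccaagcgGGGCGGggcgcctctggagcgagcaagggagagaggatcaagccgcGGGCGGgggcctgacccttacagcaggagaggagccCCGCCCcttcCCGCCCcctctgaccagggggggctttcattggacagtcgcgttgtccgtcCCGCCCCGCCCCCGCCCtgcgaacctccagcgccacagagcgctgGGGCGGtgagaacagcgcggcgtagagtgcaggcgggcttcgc
Fzd1: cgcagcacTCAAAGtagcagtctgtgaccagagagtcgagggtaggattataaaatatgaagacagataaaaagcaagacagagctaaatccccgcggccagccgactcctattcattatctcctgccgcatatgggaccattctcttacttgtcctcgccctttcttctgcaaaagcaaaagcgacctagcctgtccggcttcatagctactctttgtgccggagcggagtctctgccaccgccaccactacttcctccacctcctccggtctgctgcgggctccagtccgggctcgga

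The Fzd5 window held 10 matches to the GC box and the Fzd4 window 8. Their GC contents were 75.7% and 72.7%, beside a mean of 53.8% over all mouse windows. Neither window held TCAAAG or CTTTGA. Fzd1, at 54.0% GC, held 1 match to these letters, which starts at base 9 of the window, and no GC box. The windows of Fzd7 and Ryk, which are not printed, held 7 and 3 GC boxes and neither TCAAAG nor CTTTGA. Of 32851 mouse promoter windows of the same length, 16.0% held TCAAAG or its reverse and 35.7% the GC box or its reverse. A match of 6 letters is a description of the window and not a bound site, and its absence says only that these letters are not there.

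Fzd8 was about 2-fold and Fzd5 about 1.7-fold higher in APC-KO tumours, with and without Dox. Fzd4 and Fzd6 passed as higher by smaller amounts with Dox and over both conditions. Neither passed without Dox, where Fzd4 differed by 0.27 ± 0.10 and Fzd6 by -0.00 ± 0.06. A difference between the Dox conditions was not called for either (no receptor passed the interaction). No receptor that passed was lower in APC-KO tumours when read by its brightest probe set, and no receptor passed in the comparisons of Dox against no Dox. Without Dox 2 of the 9 receptors were called (22.2%), beside 24.9% of all genes tested. With Dox 4 of 9 were called (44.4%), beside 19.9% of all genes, and over both Dox conditions 4 of 9, beside 36.5%. All receptors called were higher in APC-KO tumours. Counted by direction, 11.9% of all genes were called higher and 7.99% lower with Dox, 13.8% and 11.1% without Dox, and 20.9% and 15.6% over both. The APC-KO and APC-WT comparison over both conditions uses the same 12 arrays as the separate comparisons, so the 3 are not independent.

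**Figure D1:**
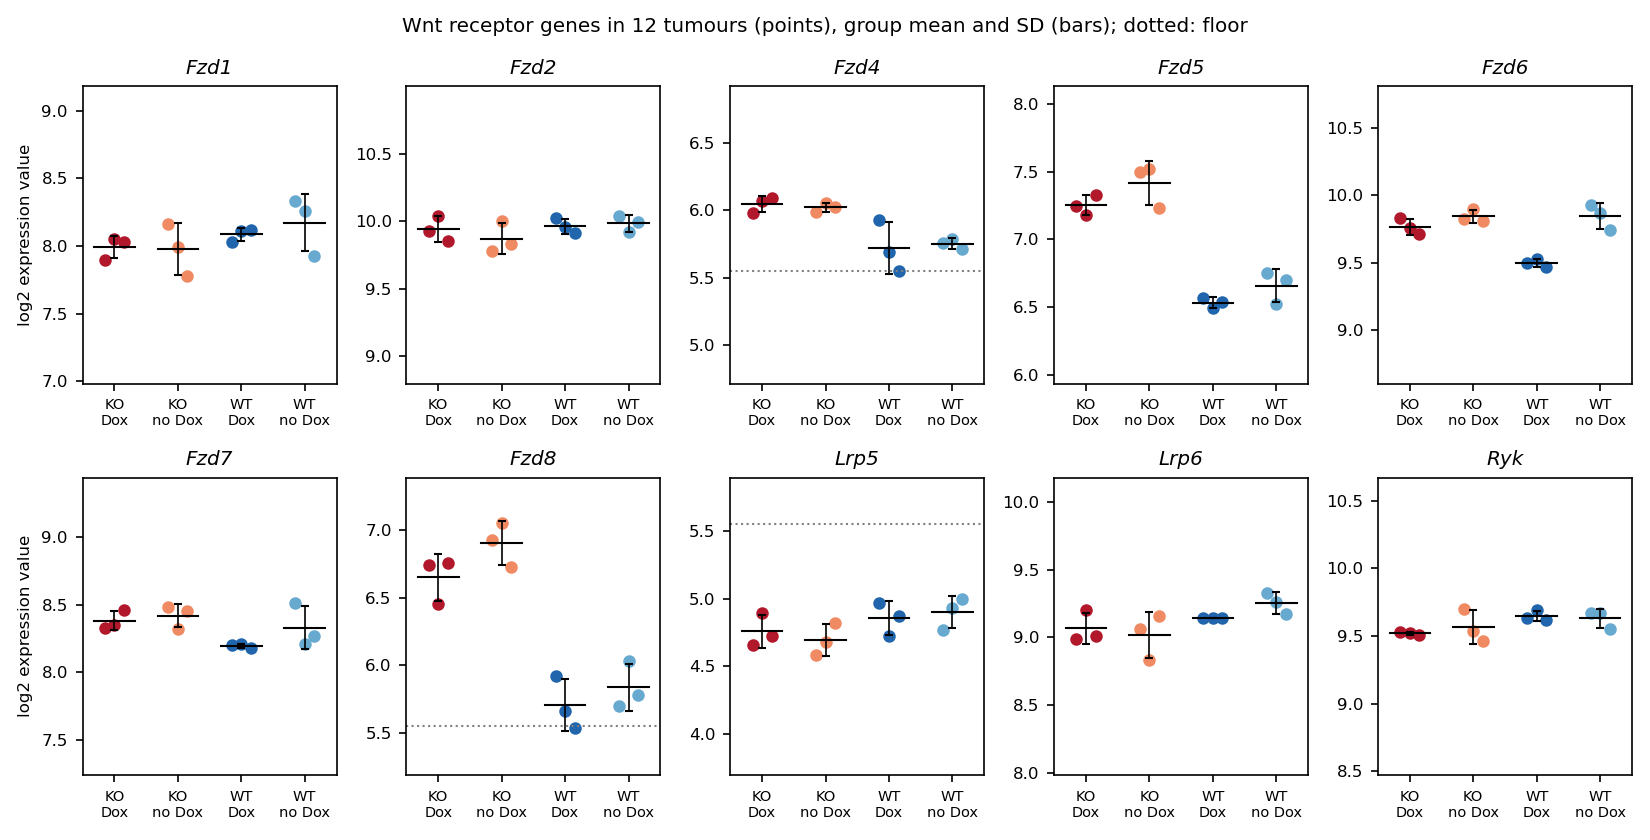
Log2 level of each of the 10 receptors (vertical axis of each panel, each over a span of the same height) in the 4 groups, read by the brightest probe set; points are the 3 tumours of a group, bars the mean and SD, and the dotted line the floor of 5.55. Fzd8 and Fzd5 sit higher in all 6 APC-KO tumours than in any APC-WT tumour, and Lrp5 lies under the floor in all 12.

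Fzd8 encodes a Wnt receptor best known for canonical signalling. Its log2 levels were 6.74, 6.45 and 6.76 in APC-KO tumours with Dox and 6.93, 7.05 and 6.73 in APC-KO tumours without Dox. In APC-WT tumours they were 5.92, 5.66 and 5.54 with Dox and 5.70, 6.03 and 5.78 without. All 6 APC-KO tumours were above all 6 APC-WT tumours, of which 1, with Dox, was just under the floor. The APC-KO minus APC-WT difference was 1.07 ± 0.13 without Dox (2.10-fold, adjusted p = 7.11e-05) and 0.95 ± 0.13 with Dox (1.93-fold, adjusted p = 0.000204). Over both conditions it was 1.01 ± 0.09 (2.01-fold, adjusted p = 2.17e-06), and 0.813% of tested genes differed by more. A fainter Fzd8 probe set, under the floor on all 12 arrays, was also higher, by 0.41 ± 0.10 without Dox (adjusted p = 0.0173) and by 0.33 ± 0.07 over both conditions (adjusted p = 0.00408), in the fit over all 45037 probe sets; with Dox its difference was 0.26 ± 0.10 (adjusted p = 0.151). In that fit 12.3% of all probe sets were called without Dox, 9.51% with Dox and 18.6% over both conditions.

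Fzd5, the gene of a Wnt receptor used by Paneth cells in the mouse intestine, had log2 levels of 7.25, 7.18 and 7.33 in APC-KO tumours with Dox and 7.50, 7.52 and 7.23 in APC-KO tumours without Dox. The levels in APC-WT tumours were 6.57, 6.49 and 6.54 with Dox and 6.75, 6.52 and 6.70 without. Again all APC-KO tumours lay above all APC-WT tumours. The difference was 0.76 ± 0.09 without Dox (1.70-fold, adjusted p = 6.33e-05), 0.72 ± 0.09 with Dox (1.65-fold, adjusted p = 0.000101) and 0.74 ± 0.06 over both (1.67-fold, adjusted p = 1.36e-06), a size that 2.02% of tested genes exceeded. The other Fzd5 probe set, under the floor on all arrays, did not pass, with differences of 0.04 ± 0.15 without Dox and -0.23 ± 0.15 with Dox. With the mean of both probe sets in place of the brightest, Fzd5 was higher by 0.40 without Dox (adjusted p = 0.00446), and by 0.25 with Dox, which did not pass (adjusted p = 0.0556).

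Fzd4 encodes the receptor of Norrin as well as of Wnts, and is known for its role in the growth of retinal vessels. Its levels were low, at 5.98, 6.07 and 6.09 in APC-KO tumours with Dox and 5.99, 6.05 and 6.02 in APC-KO tumours without Dox, against 5.93, 5.69 and 5.55 in APC-WT tumours with Dox and 5.76, 5.79 and 5.71 in APC-WT tumours without Dox. The APC-KO tumours stood above the APC-WT tumours in both conditions, and the lowest APC-WT array was just under the floor. The difference was 0.32 ± 0.10 with Dox (1.25-fold, adjusted p = 0.0304) and 0.27 ± 0.10 without Dox, which did not pass (adjusted p = 0.0579). Over both conditions it was 0.30 ± 0.07 (1.23-fold, adjusted p = 0.00419), and 13.5% of tested genes differed by more. The call with Dox was lost on leaving out any 1 of 4 tumours, Dox replicate 2 or 3 of either genotype, with an adjusted p of up to 0.150 without APC-WT Dox replicate 3. It was also lost in a fit to only the groups compared. Fzd4 passed as higher without Dox in 4 of 18 alternatives, with an adjusted p as low as 0.0315. A second Fzd4 probe set lay under the floor on all 6 APC-WT arrays. In the fit over all probe sets it was higher with Dox (adjusted p = 0.0201) and over both conditions (adjusted p = 0.00324), and did not pass without Dox (adjusted p = 0.101). Its call with Dox was lost in 4 of 17 alternatives, each without 1 Dox tumour (replicate 2 or 3 of APC-WT, or 1 or 2 of APC-KO), with an adjusted p of up to 0.0992. In the same fit the brightest Fzd4 probe set passed with Dox (adjusted p = 0.0462). That call was lost in 11 of 17 alternatives, with an adjusted p of up to 0.239. Norrin itself (Ndp) and the Norrin co-receptor gene Tspan12 were under the floor, at mean log2 levels of 4.19 and 3.85, and were not tested.

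**Figure D2:**
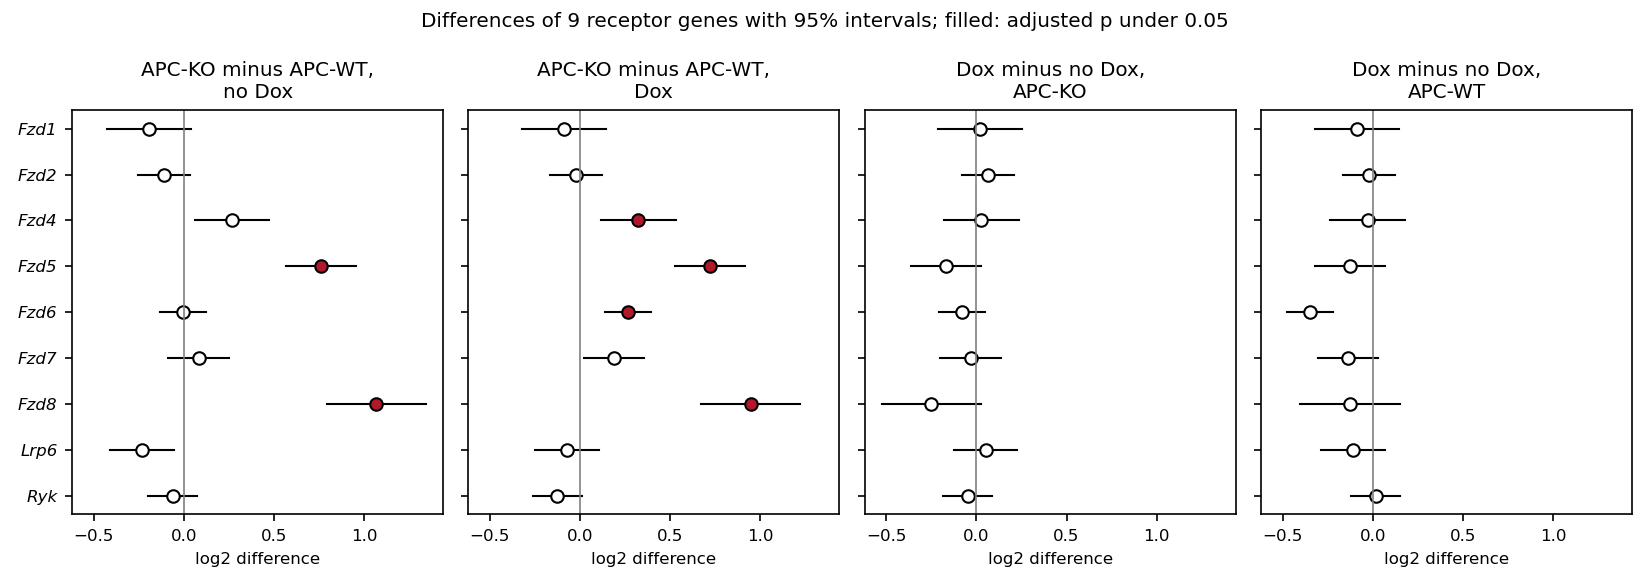
Log2 differences of the 9 tested receptors (horizontal axis of each panel), APC-KO minus APC-WT without and with Dox and Dox minus no Dox in APC-KO and APC-WT tumours, with 95% confidence intervals from the limma fit; filled points passed an adjusted p of 0.05. Fzd8 (1.07 and 0.95) and Fzd5 (0.76 and 0.72) stand to the right of 0 in both genotype panels, and the Dox panels hold no filled point.

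Fzd6, a Frizzled of planar cell polarity in hair follicles, was the receptor nearest to a call with Dox. It had log2 levels of 9.50, 9.53 and 9.47 in APC-WT tumours with Dox, against 9.93, 9.87 and 9.74 in APC-WT tumours without Dox. The 2 groups did not overlap. In APC-KO tumours the levels were 9.83, 9.76 and 9.71 with Dox and 9.82, 9.90 and 9.81 without, and these overlapped. The Dox minus no-Dox difference was -0.35 ± 0.06 in APC-WT tumours (0.786-fold), rank 5 of 11070 genes by p, yet it did not pass (adjusted p = 0.0786). In APC-KO tumours it was -0.08 ± 0.06 (adjusted p = 0.611).

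In the fit over all 45037 probe sets, the same Fzd6 probe set passed in APC-WT tumours (adjusted p = 0.0472), as did 0.0799% of all probe sets. That call was lost in 12 of 17 alternatives, with the highest adjusted p, 0.270, without APC-WT Dox replicate 1. At gene level the adjusted p ranged from 0.00672 with array quality weights to 0.373 without APC-WT Dox replicate 1, and was 0.00847 without APC-WT no-Dox replicate 3. A second Fzd6 probe set differed by -0.36 ± 0.12 with Dox in APC-WT tumours (adjusted p = 0.312). The difference between the genotypes in the Dox effect, the interaction, was 0.27 ± 0.08 for Fzd6, with a 95% interval of 0.09 to 0.45, an unadjusted p of 0.00605 and an adjusted p of 0.259 in limma, so a difference in the Dox effect was not called.

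Between genotypes, Fzd6 was higher in APC-KO tumours with Dox by 0.27 ± 0.06 (1.20-fold, adjusted p = 0.00627), and the groups did not overlap. Without Dox its difference was -0.00 ± 0.06 (adjusted p = 0.975). The comparison with Dox uses the same APC-WT Dox tumours as the Dox comparison above. Over both conditions the difference was 0.13 ± 0.04 (adjusted p = 0.0244), a call lost on leaving out any 1 of 4 tumours, with an adjusted p of at most 0.0583. These were replicate 3 of APC-WT with Dox, replicate 3 of APC-WT without Dox, replicate 1 of APC-KO with Dox and replicate 2 of APC-KO without Dox. With the mean of its probe sets Fzd6 did not pass with Dox (adjusted p = 0.256) or over both conditions (adjusted p = 0.539).

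In the comparisons of Dox against no Dox, 0 of the 9 receptors passed in limma in either genotype. All genes gave few calls there as well, 0.542% of them in APC-KO tumours and 0.0271% in APC-WT tumours. At an unadjusted p under 0.05 there was 1 receptor, Fzd6, in APC-WT tumours, beside 15.5% of all genes, and 0 in APC-KO tumours, beside 13.1%. In APC-WT tumours the 3 Dox arrays were below the 3 no-Dox arrays for Fzd6, Fzd7 and Lrp6, 3 of 9 receptors, beside 10.3% of all genes (for Fzd7 by a gap that does not show at 2 decimals), and the median difference of the 9 receptors was -0.11, beside -0.01 for all genes. The median in APC-KO tumours was -0.03, beside 0.00. Fzd8 and Fzd5 differed with Dox in APC-KO tumours by -0.25 ± 0.13 (adjusted p = 0.435) and -0.17 ± 0.09 (adjusted p = 0.456), neither of which passed. No receptor passed the interaction of Dox and genotype, with 1 of 9, Fzd6, at an unadjusted p under 0.05, and among all 11070 genes 0 passed (0%), with 1312 (11.9%) at an unadjusted p under 0.05.

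Fzd7 encodes a Wnt receptor of intestinal stem cells in mice. Its levels were 8.33, 8.35 and 8.46 in APC-KO tumours with Dox and 8.48, 8.32 and 8.45 in APC-KO tumours without Dox, against 8.20, 8.21 and 8.18 in APC-WT tumours with Dox and 8.51, 8.21 and 8.27 in APC-WT tumours without Dox. With Dox the APC-KO tumours were all above the APC-WT tumours, and without Dox they overlapped. The difference was 0.19 ± 0.08 with Dox (95% interval 0.02 to 0.35, adjusted p = 0.112) and 0.08 ± 0.08 without Dox (adjusted p = 0.480), and neither passed. Over both conditions Fzd7 differed by 0.13 ± 0.06 (95% interval 0.02 to 0.25, adjusted p = 0.0721), which did not pass. Fzd7 passed as higher in 3 of 19 alternatives over both conditions and in 2 of 20 with Dox.

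Fzd1, which encodes a receptor of canonical signalling, had levels of 7.90, 8.05 and 8.03 in APC-KO tumours with Dox and 8.16, 7.99 and 7.78 in APC-KO tumours without Dox, against 8.03, 8.11 and 8.12 in APC-WT tumours with Dox and 8.33, 8.26 and 7.93 in APC-WT tumours without Dox. The groups overlapped. Over both conditions the APC-KO minus APC-WT difference was -0.14 ± 0.08, with a 95% interval of -0.31 to 0.02 (adjusted p = 0.164). Fzd1 passed as lower in 2 of 19 alternatives over both conditions and in 1 of 20 without Dox.

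The probe sets of Fzd2, the gene of a receptor for Wnt5a as well as for canonical Wnts, did not move together. The brightest gave 9.93, 10.04 and 9.85 in APC-KO tumours with Dox, 9.78, 10.00 and 9.83 in APC-KO tumours without Dox, 10.02, 9.96 and 9.91 in APC-WT tumours with Dox and 10.04, 9.92 and 9.99 in APC-WT tumours without Dox. These overlapped, and the difference over both conditions was -0.07 ± 0.05 (adjusted p = 0.309). The third brightest gave 8.74, 8.90 and 9.03 in APC-KO tumours with Dox and 8.86, 8.81 and 8.80 in APC-KO tumours without Dox, against 9.61, 9.52 and 9.41 in APC-WT tumours with Dox and 9.63, 9.45 and 9.47 in APC-WT tumours without Dox. On that probe set all APC-KO tumours lay below all APC-WT tumours, with a difference of -0.66 ± 0.05 over both conditions (adjusted p = 2.79e-07). The fit over all probe sets gave it differences of -0.69 ± 0.08 without Dox (adjusted p = 1.84e-05) and -0.62 ± 0.08 with Dox (adjusted p = 6.14e-05), beside -0.10 and 0.02 for the second brightest, which did not pass. All 3 are annotated to the same source sequence. The mean of the 3 passed, with differences of -0.30 without Dox (adjusted p = 0.00376) and -0.21 with Dox (adjusted p = 0.0314), so whether Fzd2 is called depends on the probe sets read.

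**Figure D3:**
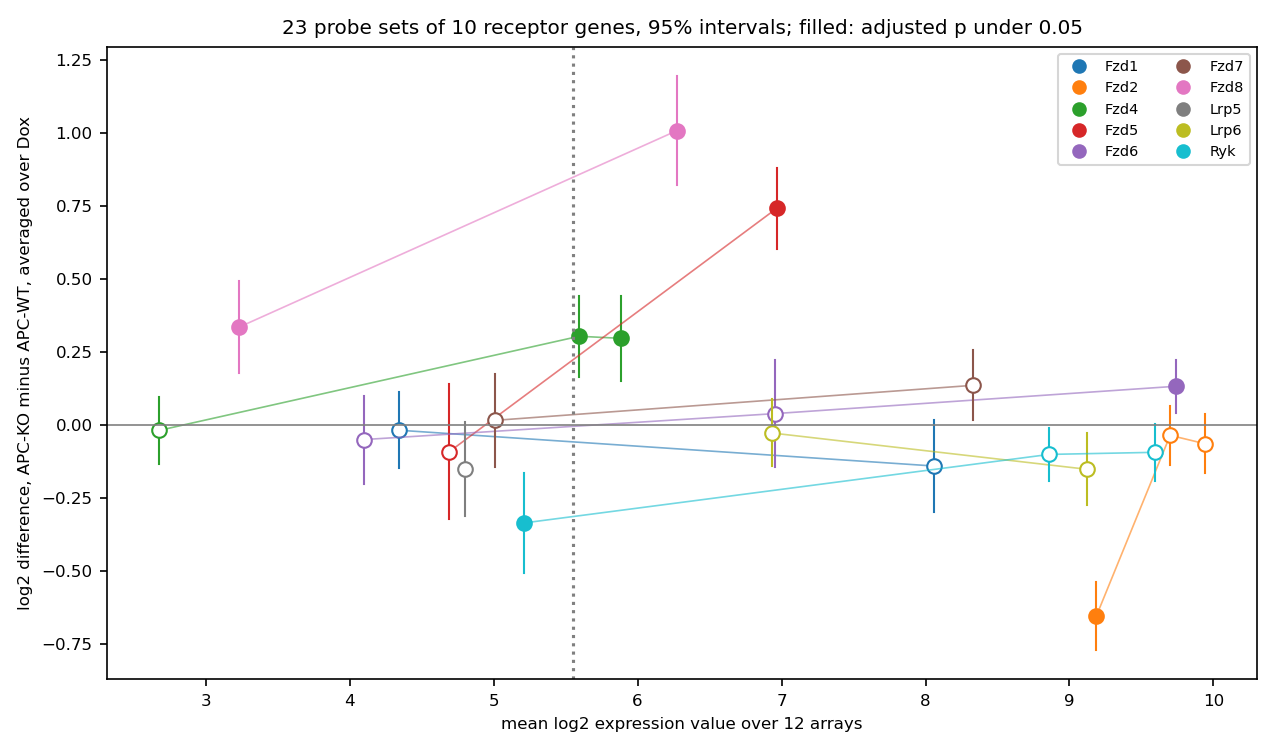
APC-KO minus APC-WT log2 difference over both Dox conditions (vertical axis) against the mean log2 value over 12 arrays (horizontal axis) for the 23 receptor probe sets, with 95% confidence intervals from the fit over all 45037 probe sets. Lines join the probe sets of 1 gene, filled points passed an adjusted p of 0.05, and the dotted line is the floor of 5.55; the dimmest Fzd2 probe set, at -0.66, stands apart from its 2 partners.

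The co-receptor gene Lrp6 had levels of 8.99, 9.20 and 9.01 in APC-KO tumours with Dox and 9.06, 8.83 and 9.16 in APC-KO tumours without Dox. In APC-WT tumours it had 9.14, 9.14 and 9.14 with Dox and 9.33, 9.26 and 9.17 without. Without Dox the APC-KO tumours were all below the APC-WT tumours, by a narrow gap. That difference was -0.23 ± 0.08 (95% interval -0.41 to -0.06), just short of the threshold (adjusted p = 0.0525), and with Dox it was -0.07 ± 0.08 (adjusted p = 0.583). Leaving out replicate 3 of the no-Dox tumours of either genotype, or replicate 2 of APC-KO with Dox, brought the difference without Dox past the threshold, to an adjusted p as low as 0.0240. Quantile normalization and a floor at the 75th percentile did so as well. Without replicate 2 of the APC-KO no-Dox tumours the difference without Dox shrank to -0.14 (adjusted p = 0.208). Over both conditions Lrp6 differed by -0.15 ± 0.06 (95% interval -0.28 to -0.03), which did not pass (adjusted p = 0.0535). It passed as lower over both conditions in 5 of 19 alternatives. The fainter Lrp6 probe set differed by -0.10 ± 0.08 without Dox and did not pass.

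Lrp5 has 1 probe set, which lay under the floor on all 12 arrays. It read 4.66, 4.89 and 4.72 in APC-KO tumours with Dox, 4.58, 4.68 and 4.82 in APC-KO tumours without Dox, 4.97, 4.72 and 4.87 in APC-WT tumours with Dox and 4.77, 4.93 and 5.00 in APC-WT tumours without Dox. In a fit with no filter on level, over 18193 genes, its APC-KO minus APC-WT difference was -0.21 ± 0.11 without Dox (adjusted p = 0.225) and -0.09 ± 0.11 with Dox (adjusted p = 0.667).

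Ryk levels were 9.53, 9.52 and 9.51 in APC-KO tumours with Dox and 9.70, 9.54 and 9.46 in APC-KO tumours without Dox, against 9.63, 9.69 and 9.62 in APC-WT tumours with Dox and 9.67, 9.67 and 9.55 in APC-WT tumours without Dox. With Dox the APC-KO tumours were all lower, by a difference of -0.13 ± 0.06 that did not pass (adjusted p = 0.184), and without Dox the groups overlapped at -0.06 ± 0.06 (adjusted p = 0.512). A faint Ryk probe set, under the floor on 11 of 12 arrays, was lower with Dox by a fitted -0.48 ± 0.11 (adjusted p = 0.0125), a call lost without replicate 2 of the Dox tumours of either genotype (adjusted p up to 0.0729). That probe set did not pass without Dox (-0.20, adjusted p = 0.327) and passed over both conditions (-0.34, adjusted p = 0.00669). With the mean of its 3 probe sets, Ryk passed as lower with Dox, at -0.24 (adjusted p = 0.00558), and over both conditions, at -0.18 (adjusted p = 0.00216). With array quality weights it passed in both as well, and over both conditions also after quantile normalization and without APC-KO no-Dox replicate 1.

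Counted over the 9 tested receptors without regard to the test, 3 did not overlap and were higher and 1 was lower in APC-KO tumours without Dox, beside 20.8% of all genes higher and 16.4% lower (37.2% in all). With Dox 5 were higher and 1 lower, beside 23.4% and 18% of all genes (41.4% in all). All 6 APC-KO tumours were above all 6 APC-WT tumours for 3 of the 9, Fzd4, Fzd5 and Fzd8, beside 8.93% of all genes. The median receptor difference was -0.00 without Dox and 0.19 with Dox, beside 0.01 for all genes in both.

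Over the 12 arrays, Fzd5 and Fzd8 levels correlated at r = 0.952, Fzd4 and Fzd8 at 0.888 and Fzd4 and Fzd5 at 0.83. These values share the split between genotypes: after each group's mean was taken away, r was 0.252 for Fzd5 and Fzd8, 0.554 for Fzd4 and Fzd8 and 0.04 for Fzd4 and Fzd5. Fzd1 and Ryk correlated at 0.818, and at 0.852 after the group means were taken away. The genes whose levels were most like those of Fzd8 over the 12 arrays were Ltbp2 (r = 0.978), Pigk (0.971) and Elovl4 (0.971), and Ltbp2 was also first after the group means were taken away (0.968). Those most like Fzd5 were Pdgfra (0.976), Fam3c (0.974) and Tbc1d8b (0.973), and those most like Fzd4 were Abcb6 (0.961), Sdhaf3 (0.958) and Wnt5a (0.952). For Fzd6 they were Tgfbi (0.929), Lpxn (0.925) and Cyp4f18 (0.918). After the group means were taken away, none of the genes named here for Fzd4, Fzd5 or Fzd6 stayed among the 3 most like it. How far their own r fell was not read. For Fzd5 those were then Mphosph9 (0.947), Slc11a2 (0.931) and Lpcat3 (0.918). The first was Nudt16l1 (0.974) for Fzd4 and Cep89 (0.96) for Fzd6. All these correlations are descriptions over tumours that share arrays and groups.

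Genes next to the receptors on their chromosomes were read as well, as the 10 tested genes on each side in chromosome order. Those of the called receptors and of Lrp6 are given here. Of the 20 genes around Fzd8, over both Dox conditions, 1 was higher and 8 were lower in APC-KO tumours. Their median difference was -0.11, beside -0.10 for all tested genes of chromosome 18. Over all genes 20.9% were called higher and 15.6% lower in that comparison. Around Fzd5 0 of 20 were higher and 4 lower, with a median of -0.05. Around Fzd6 10 of 20 were higher and 2 lower, with a median of 0.13, beside 0.03 for chromosome 15 and 0.01 for all genes. Their median was 0.14 without Dox and 0.12 with Dox, where Fzd6 itself differed by -0.00 and 0.27. Around Fzd4 4 of 20 were higher and 3 lower, with a median of 0.03. Around Lrp6 1 of 20 was higher and 7 lower, with a median of -0.09, beside -0.01 for chromosome 6. The median around Lrp6 was -0.15 without Dox and -0.02 with Dox, where Lrp6 itself differed by -0.23 and -0.07.

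The ligands of these receptors were read from a list of 19 Wnt genes, of which 8 reached the floor. Over both Dox conditions 1 was higher in APC-KO tumours, 2 were lower and 5 did not pass, with a median difference of -0.09, beside 0.01 for all genes. In that comparison 20.9% of all genes were called higher and 15.6% lower (36.5% in all), shares against which the counts of this and the next lists can be read. Wnt5a, a ligand of polarity and calcium signalling, had log2 levels of 9.38, 9.36 and 9.66 in APC-KO tumours with Dox and 9.51, 9.38 and 9.26 in APC-KO tumours without Dox, against 8.36, 7.89 and 7.29 in APC-WT tumours with Dox and 7.70, 8.04 and 8.07 in APC-WT tumours without Dox. All APC-KO tumours were above all APC-WT tumours, with a difference of 1.53 ± 0.14 (2.89-fold, adjusted p = 2.17e-06).

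Wnt7b, a canonical ligand, had levels of 8.48, 8.29 and 8.18 in APC-KO tumours with Dox and 8.85, 9.09 and 8.71 in APC-KO tumours without Dox. In APC-WT tumours it had 9.37, 9.35 and 9.21 with Dox and 9.33, 9.05 and 9.34 without. The lowest 3 were the APC-KO tumours with Dox. Wnt7b was lower in APC-KO tumours by 0.99 ± 0.11 with Dox (adjusted p = 2.68e-05) and by 0.35 ± 0.11 without Dox (adjusted p = 0.0274). It was the only gene of the Wnt pathway lists to pass with Dox against no Dox, and only in APC-KO tumours, at -0.57 ± 0.11 (adjusted p = 0.0330). That call was lost in 9 of 20 alternatives, 5 of which leave out 1 tumour, with an adjusted p of up to 0.164 without APC-KO Dox replicate 3. The interaction for Wnt7b was -0.64 ± 0.15 (adjusted p = 0.202) and did not pass. Wnt10b, another canonical ligand, was lower over both conditions by 0.29 ± 0.08 (adjusted p = 0.0103).

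**Figure D4:**
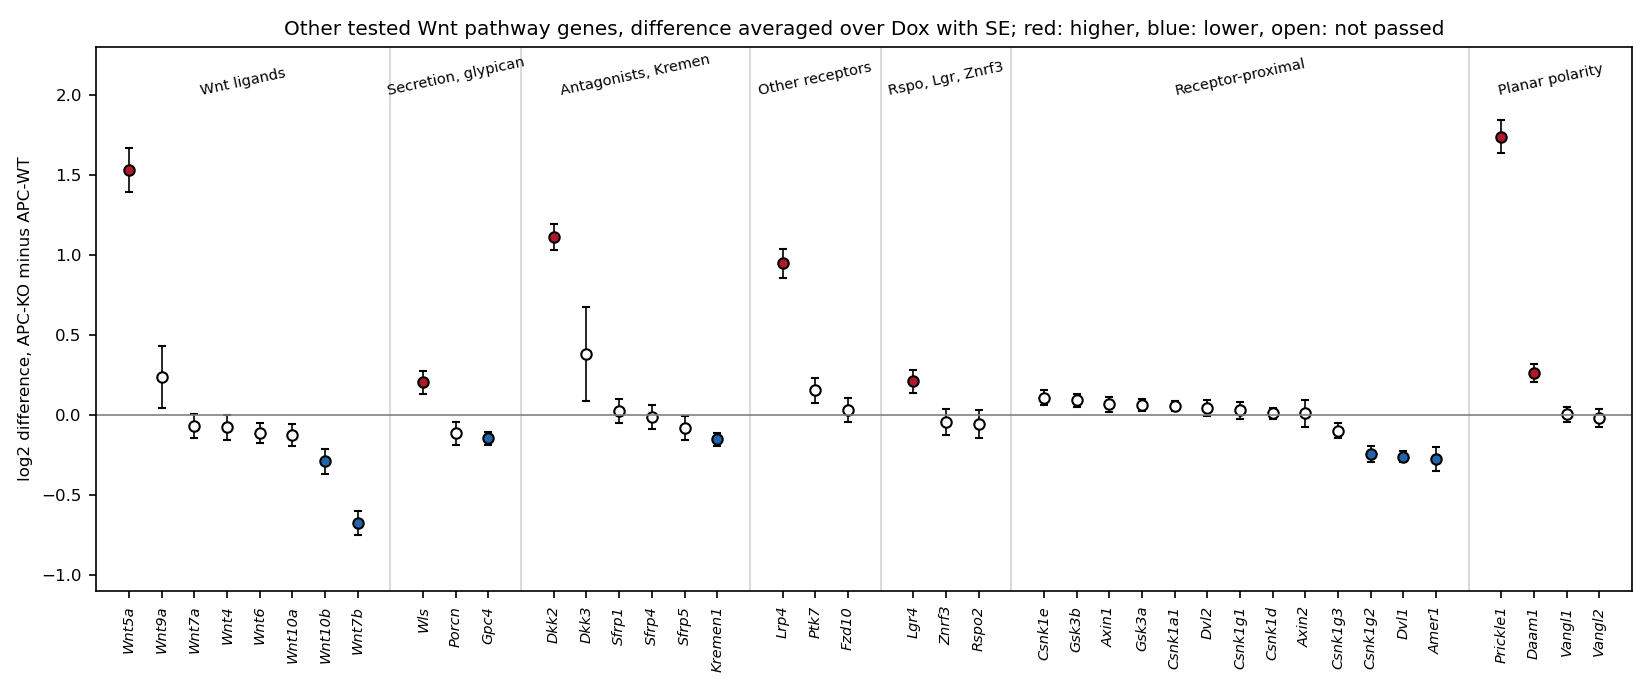
APC-KO minus APC-WT log2 differences over both Dox conditions (vertical axis) for the tested genes of the Wnt pathway lists, 1 block per list, with standard errors of the limma fit; red points were higher, blue points lower and open points did not pass an adjusted p of 0.05. Prickle1 at 1.74, Wnt5a at 1.53 and Dkk2 at 1.11 stand highest, and Wnt7b at -0.67 lowest.

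Of 14 secreted antagonists and Kremens, 13 were on the array and 6 were tested; 1 was higher, 1 lower and 4 did not pass over both conditions. Dkk2, a secreted protein that binds LRP5 and LRP6, had levels of 9.83, 9.81 and 9.79 in APC-KO tumours with Dox and 10.30, 10.17 and 10.07 in APC-KO tumours without Dox, against 8.68, 8.81 and 8.55 in APC-WT tumours with Dox and 9.20, 9.30 and 8.73 in APC-WT tumours without Dox. The 2 genotypes did not overlap, and the difference was 1.11 ± 0.08 (2.16-fold, adjusted p = 3.18e-07). Kremen1, the gene of a Dickkopf co-receptor, was lower by 0.15 ± 0.04 (adjusted p = 0.0102).

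Among 8 further Wnt receptors 3 were tested, and Lrp4 was higher in APC-KO tumours. All 6 APC-WT arrays lay under the floor for Lrp4, so it was at least 1.50-fold higher over both conditions, against the floor (adjusted p = 3.55e-06). The filter on level thus kept Lrp4 only through its APC-KO values, and its call and p are not independent of that filter. Fzd10 differed by 0.03 ± 0.07 and Ptk7 by 0.16 ± 0.08, and neither passed. Fzd3, Fzd9, Ror1, Ror2 and Musk were under the floor.

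Of 8 genes of Wnt secretion and receptor maturation 3 were tested, with 1 higher, 1 lower and 1 that did not pass. Wls, which carries Wnts to the cell surface, was higher by 0.20 ± 0.07 (adjusted p = 0.0386), a call lost in 11 of 19 alternatives, 8 of them without 1 tumour, and the glypican gene Gpc4 was lower by 0.14 ± 0.04 (adjusted p = 0.0108). Of 9 R-spondins, Lgr receptors and the ubiquitin ligases that remove Frizzleds from the membrane, 3 were tested and 1, the R-spondin receptor gene Lgr4, was higher by 0.21 ± 0.07 (adjusted p = 0.0338), a call lost in 8 of 18 alternatives, 7 of them without 1 tumour. Znrf3, one of those ligases, differed by -0.04 ± 0.08 (adjusted p = 0.705).

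Of 14 genes acting just below the receptors 13 were tested, with 0 higher and 3 lower over both conditions, and 10 that did not pass, a smaller share called than the 36.5% of all genes. Dvl1, one of the Dishevelled genes, was lower by 0.26 ± 0.03 (adjusted p = 5.89e-05). Csnk1g2, of a casein kinase family that phosphorylates LRP6, was lower by 0.24 ± 0.05 (adjusted p = 0.00161), and Amer1, whose protein binds APC, by 0.27 ± 0.07 (adjusted p = 0.0107). Axin2, a feedback gene of beta-catenin signalling, differed by 0.01 ± 0.09 (adjusted p = 0.930).

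Of 9 planar cell polarity genes 4 were tested and 2 were higher over both conditions. Prickle1 was higher by 1.74 ± 0.10 (adjusted p = 3.54e-08), with 4 of the 6 APC-WT arrays under the floor, and with Dox, where all 3 were, it was at least 2.89-fold higher. Its APC-WT means were 5.72 without Dox and 5.22 with Dox, so it too passed the filter on level through its APC-KO values. Daam1, which links Dishevelled to the actin skeleton, was higher by 0.27 ± 0.06 (adjusted p = 0.00226) by its brightest probe set, and with the mean of its probe sets the sign turned, to -0.0208 (adjusted p = 0.824).

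Markers of cell types that a tumour can hold were counted in the same comparison, in which 20.9% of all genes were called higher and 15.6% lower. These are bulk tumours, in which fewer cells of a type and less RNA per cell cannot be told apart. Over both Dox conditions 4 of 8 tested fibroblast markers were higher and 1 lower in APC-KO tumours. Pdgfra was higher by 0.48 ± 0.05. It was the gene most like Fzd5 over values that share the split between genotypes. Once the group means were taken away, Pdgfra was not among the 3 genes most like Fzd5, and its own r with Fzd5 was not read. The mean log2 level of the fibroblast markers was 10.56 to 10.63 in APC-KO tumours with Dox and 10.31 to 10.71 without. In APC-WT tumours it was 10.34 to 10.42 with Dox and 10.35 to 10.59 without. Of 7 tested endothelial markers 3 were higher and 0 lower, with means of 7.16 to 7.35 with Dox and 7.15 to 7.29 without Dox in APC-KO tumours, against 6.92 to 7.10 and 6.84 to 7.25 in APC-WT tumours.

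T cell markers were lower, 5 of 6, with means of 5.80 to 6.43 in APC-KO tumours with Dox and 6.24 to 6.34 without, against 6.45 to 6.75 in APC-WT tumours with Dox and 6.80 to 7.11 without. Among these 5, Cd2 had APC-KO means under the floor, 5.40 with Dox and 5.25 without, against 5.71 and 6.11 in APC-WT tumours. Cd2 passed the filter on level through its APC-WT values, so its call is not independent of that filter. Of the 3 tested epithelial markers Krt8 was lower by 1.21 ± 0.29 (adjusted p = 0.00545), while Epcam (0.12 ± 0.06, adjusted p = 0.157) and Cdh1 (0.23 ± 0.12, adjusted p = 0.160) did not pass. With Dox alone Cdh1 was higher, at a fitted 0.63 ± 0.17 (adjusted p = 0.0197), and Krt8 did not pass (adjusted p = 0.0555). For Cdh1 5 of 12 arrays were under the floor, among them all 3 of APC-WT with Dox (5.19, 4.89 and 5.31), so the size of its difference is uncertain. The mean of the 8 epithelial markers was 5.12 to 5.29 and 5.37 to 5.70 in APC-KO tumours with and without Dox, against 5.27 to 5.45 and 5.50 to 5.90 in APC-WT tumours. Of the other marker lists, smooth muscle and pericyte had 1 of 6 higher, macrophage 1 higher and 1 lower of 8, mesothelial 1 of 1 lower and enteric glia 0 of 1. The part of these markers in the receptor differences was not tested.

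Neutrophil markers are given by Dox condition. Over both conditions 1 of 3, Csf3r, was higher in APC-KO tumours. Without Dox all 3 were higher, with a median difference of 2.94, and with Dox 2 were lower, S100a8 at least 2.19-fold and S100a9 at least 2.90-fold against the floor, while Csf3r did not pass. S100a8 levels were 4.50, 5.32 and 3.86 in APC-KO tumours with Dox, 9.35, 9.17 and 7.35 in APC-KO tumours without Dox, 6.32, 6.05 and 7.68 in APC-WT tumours with Dox and 4.25, 6.25 and 6.56 in APC-WT tumours without Dox. With Dox in APC-KO tumours, where 0 receptors passed, S100a8 was at least 8.41-fold and S100a9 at least 11.2-fold lower than without Dox (adjusted p = 0.0113 and 0.0133). In APC-WT tumours 0 of 3 passed with Dox, and neither S100 gene passed the interaction (adjusted p = 0.129 for each). Whether neutrophil content bears on the receptor values was not tested.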

How the data were processed

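Per the labels' protocols, RNA of the tumours was extracted with Trizol, purified on columns and made into biotinylated cRNA for the arrays. The authors deposited log2 expression values, whose unit was read from their range of 1.86 to 14.16. MAS5 was used per the submitters' processing notes, with no version; for its background, scaling and detection steps the sources used here give nothing. No further normalization was applied and no detection call was used.

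The table held 45101 probe sets, 64 of them controls. 34945 had 1 gene symbol, 932 several and 9160 none, by the platform's annotation; current symbols and gene order came from RefSeq through the Entrez identifier, which matched for 34741. No 2 arrays held identical values. Each gene was its brightest single-gene probe set, tested where the mean reached 5.55, which left 11070 genes and set 7123 aside. Where all arrays of the lower group lay under this floor, a fold is a lower bound against it, without the spread between tumours.

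In R 4.3.3, limma 3.58.1 fitted 1 mean per group over the 12 arrays (eBayes with a trend), with contrasts for Dox in each genotype, genotype in each Dox condition, genotype over both, and the interaction, with Benjamini-Hochberg adjustment. A second fit over 45037 probe sets gave the values of single receptor probe sets. The fit was tested on simulated data. Alternatives were quantile normalization, no filter and a 75th percentile filter, the mean of probe sets, eBayes without a trend, array quality weights (statmod 1.5.0), only the groups compared, a replicate block and leaving out each tumour. Named genes were all receptors, and the 3 genes most like each called receptor by Pearson r. Of each pathway list they were up to 3 that passed with the largest change or, where none passed, that of smallest p. Some listed genes that did not pass, such as Axin2, Znrf3, Fzd10 and Ptk7, are named outside this rule. The receptors, lists, tests and rules were chosen with earlier results of these data known. Of the listed genes, Mesd, Kremen2 and a few markers were not analysed here. Plots used matplotlib 3.10.9 in Python 3.11.15. With 3 arrays per group the number of arrays limits the precision.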

Additional observations from a re-analysis of the deposited data

How the results depend on the processing

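Fzd8 kept its direction and its call in every alternative that gave a value, in each APC-KO versus APC-WT comparison, with differences of 0.94 to 1.17 without Dox and 0.86 to 1.05 with Dox. Taking the mean of probe sets, or a floor at the 75th percentile (7.81), put Fzd8 and Fzd4 under the floor, and that higher floor also Fzd5, so these gave no value. No receptor that passed in either setting changed sign.

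The number of receptors called changed as follows. Dox in APC-WT gave 0, and 1, lower, with array quality weights (beside 653 genes in place of 3). For APC-KO against APC-WT without Dox it was 2, both higher, and 4 after quantile normalization (3 higher, 1 lower) and 1, lower, with the 75th percentile floor, where 6 were tested. The mean of probe sets gave 1 higher and 1 lower, and eBayes without a trend gave 3, all higher. For the comparison with Dox it was 4, all higher, and 1, higher, with the 75th percentile floor and 2, both lower, with the mean of probe sets. Array quality weights gave 6 there (5 higher, 1 lower). Over both conditions it was 4, all higher, and 2 with the 75th percentile floor (1 each way) and 7 with array quality weights (5 higher, 2 lower). Quantile normalization gave 6 (4 higher, 2 lower) and the mean of probe sets 3 (1 higher, 2 lower). Leaving out 1 tumour gave 0 to 1 for Dox in APC-WT (1 without APC-WT no-Dox replicate 3, with 418 genes), 0 for Dox in APC-KO, 2 to 4 without Dox, 3 to 4 with Dox, 3 to 5 over both and 0 for the interaction.

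With a replicate block the counts were 0, 0, 2, 4, 4 and 0 for Dox in APC-KO, for Dox in APC-WT, for genotype without Dox, with Dox and over both, and for the interaction, as without it. The replicate numbers did not pair the tumours: deviations of same-numbered tumours correlated at -0.22 to 0.17, over 0.1 in 4 of 18 pairs. Among the pathway genes, Daam1 over both conditions turned to -0.0208 with the mean of probe sets, and the cause was not tested. Wnt7b without Dox lost its call in 5 of 20 alternatives, 4 of them without 1 tumour (adjusted p up to 0.111). Signal near the floor limits Fzd4, Fzd8 and Lrp5, and 3 arrays per group limit all.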
